A study of Mus musculus with 24 samples.

Results

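Quadriceps muscle of corrected delEx44 mice was compared with that of untreated delEx44 mice at 18 months of age. The comparison holds 6 of the 24 libraries in the series, 3 corrected and 3 delEx44, and they were chosen by genotype, treatment and age as labelled. The delEx44 mouse, which models Duchenne muscular dystrophy, lacks exon 44 of Dmd and is kept on a C57BL/6 background. Corrected mice are delEx44 mice injected into the peritoneum on postnatal day 4 with 2 single-stranded AAV9 vectors, 1 for a guide RNA (2.5e14 vg/kg) and 1 for the nuclease SpCas9 (5e13 vg/kg). Neither the untreated delEx44 nor the WT mice of this age are labelled with an injection, so the vectors, Cas9 and the edit all differ between the groups and cannot be told apart. Mice of all the groups used here were sedentary, and the downhill-run groups of the series were not used. The 3 WT libraries of the same age are shown beside the others as a reference level. Polyadenylated RNA was sequenced from whole muscle, in which fewer cells of a type and less RNA per cell cannot be told apart. The labels do not say whether each library came from a separate mouse, so p-values measure only the spread between these libraries. For the 18-month comparison that spread was estimated per gene over all 9 libraries of this age, WT among them. It was not equal between the groups, as given below, and the p-values do not allow for this.

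Dystrophin is the protein that ties the actin cytoskeleton of a muscle fibre to a complex of membrane proteins and, through it, to the extracellular matrix. Without it the membrane tears during contraction, fibres die and are replaced by young fibres from satellite cells, and scar and fat build up as repair fails. Editing at the edge of a deletion can bring the remaining exons back into frame, either by skipping the next exon or by a small insertion or deletion in it.

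The sequences that this turns on are the deleted exon and the one that follows it, taken from the 79-exon transcript Dmd-203 of GENCODE vM21 (GRCm38, chromosome X, plus strand). Exon 44 lies at 84022265 to 84022412 and spans 148 bases, or 1 more than a multiple of 3. Exon 45 lies at 84271952 to 84272127, spans 176 bases, or 2 more than a multiple of 3. The capitals mark the first stop codon met when the reading frame runs from exon 43 straight into exon 45, at base 47 of that exon.
Dmd exon 44: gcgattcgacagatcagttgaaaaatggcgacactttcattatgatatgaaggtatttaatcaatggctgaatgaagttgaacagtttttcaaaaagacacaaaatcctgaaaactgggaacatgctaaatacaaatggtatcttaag
Dmd exon 45: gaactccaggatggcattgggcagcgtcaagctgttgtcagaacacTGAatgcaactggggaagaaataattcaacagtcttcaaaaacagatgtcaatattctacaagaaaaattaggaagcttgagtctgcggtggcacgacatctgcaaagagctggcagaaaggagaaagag
Without exon 44 the frame holds 2114 codons before that stop, against 3678 in the full transcript. Without exons 44 and 45, which sum to 324 bases, a multiple of 3, it holds 3570 codons and ends at the usual stop in exon 79. The counts are totals over the whole gene and do not show which exons were joined in any library.

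Dmd, on chromosome X at 82948870 to 85206141, was the first gene examined, as a check of the labels. It stood at 86.2, 86.7 and 84.2 CPM (counts divided by the scaled library size) in the delEx44 libraries and at 205, 304 and 195 CPM in corrected libraries 1, 2 and 3. WT libraries had 337, 350 and 425 CPM. The groups did not overlap, and corrected library 2 was the highest of its group, at 82.0% of the WT mean against 55.3% and 52.6% in libraries 1 and 3. The difference was 1.45 ± 0.16 on the log2 scale (SE; adjusted p = 0.000204, edgeR's quasi-likelihood test with Benjamini-Hochberg adjustment over all genes, n = 3 and 3). The SD between libraries was 60.3 CPM in corrected and 1.31 CPM in delEx44 muscle.

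The highest log2 difference in the dystrophin complex list was that of a signalling enzyme. Nos1, the neuronal nitric oxide synthase held at the membrane by syntrophin and dystrophin (chromosome 5, 117781032 to 117958840), was at 12.7, 17.8 and 16.8 CPM in delEx44 and at 56.5, 64.2 and 47.1 CPM in corrected muscle. It rose by a log2 of 1.83 ± 0.15 (adjusted p = 4.75e-05). Every corrected library lay above every delEx44 library. Among the syntrophins, adaptors of the complex, Sntb1, the beta-1 syntrophin, fell from 8.50, 5.53 and 6.88 CPM to 2.94, 2.88 and 3.14 CPM (log2 −1.22), and Sntb2 fell by 0.75 on the log2 scale.

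Of the membrane members, Dag1, which encodes dystroglycan, the link to laminin, rose from 294, 296 and 289 CPM to 371, 421 and 378 CPM (log2 0.41). Sgcb, the beta-sarcoglycan, rose from 152, 161 and 159 CPM to 221, 209 and 209 CPM (log2 0.44 ± 0.061, adjusted p = 0.000435). Sgcd rose by a log2 of 0.28, while Sgca (0.17) and sarcospan, Sspn (−0.20), did not pass. Utrn, the gene of utrophin, which resembles dystrophin and can stand in for it (chromosome 10, 12382188 to 12869365), fell from 164, 148 and 159 CPM to 127, 138 and 134 CPM. Its difference was −0.24 ± 0.063 (log2, adjusted p = 0.0124), and the libraries did not overlap. Utrn no longer passed without delEx44 replicate 1, or when the 6 libraries were fitted with their replicate number included. Krt8, a keratin of the costamere, the band where the complex attaches, fell from 18.1, 12.6 and 11.9 CPM to 1.2, 1.44 and 0.928 CPM.

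In all, 8 of the 23 tested genes of this list rose and 7 fell, with a median log2 of 0.07 against −0.03 over all genes. For all genes tested the shares were 19.6% higher and 21.4% lower, or 41.0% in either direction. Scaled by library size alone, 3 of the 23 were higher and 10 lower, so the balance of this list depends on the scaling, while Dmd and Nos1 were higher under each scaling tried.

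**Figure D1:**
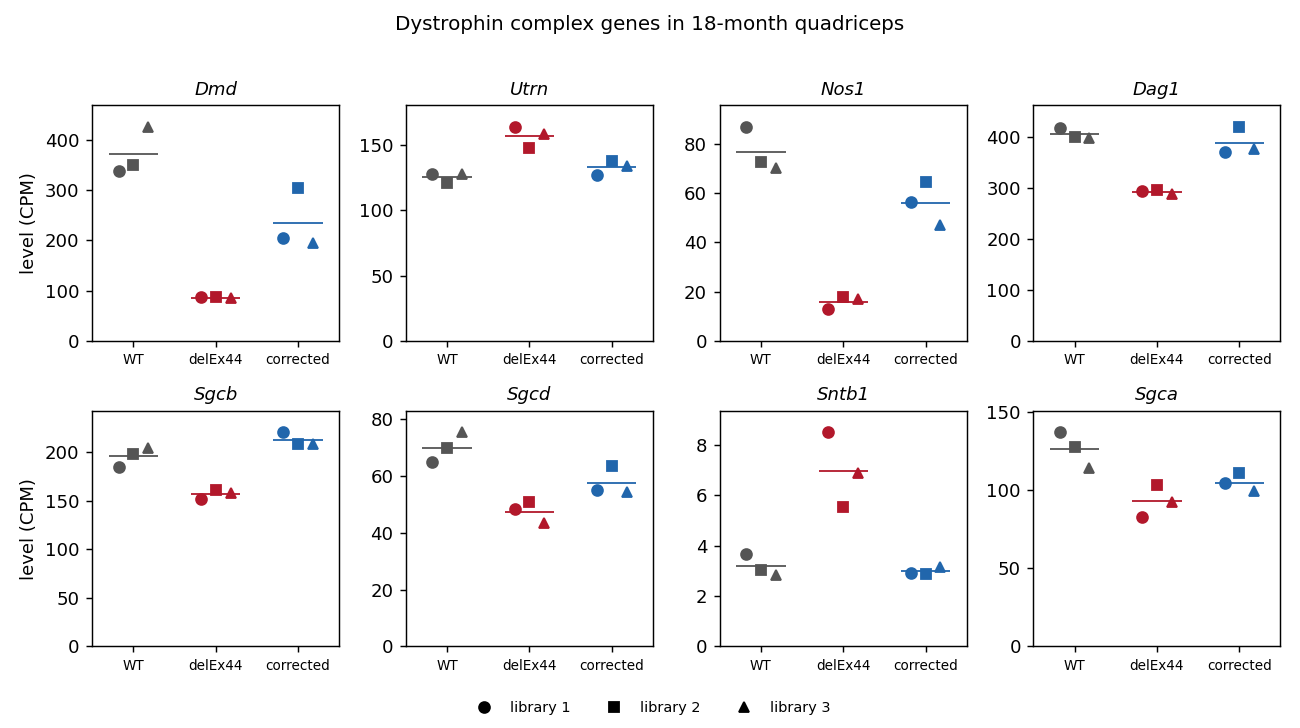
Levels of 8 dystrophin complex genes (CPM, linear axes from 0) in the 9 libraries of 18-month quadriceps, where symbols mark library numbers and bars mark group means. Corrected libraries of Dmd sit between 195 and 304 CPM, above delEx44 and below WT, and those of Sntb1 sit at 2.88 to 3.14 CPM, below delEx44.

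Over the transcriptome 5880 of 14337 tested genes passed at an adjusted p under 0.05, 2817 higher and 3063 lower in corrected muscle. The median absolute log2 difference among them was 0.54, and 284 rose and 913 fell by at least 1 log2 unit. Corrected and delEx44 libraries did not overlap for 5793 of the called genes and for 53.9% of all genes tested. Library totals ran from 26.5 to 28.6 mega-counts over genes in these 6 libraries, so depth differed little. Their scaling factors did differ, with 1.12 to 1.18 in delEx44 and 0.923 to 0.98 in corrected libraries. Without those factors the median log2 of all genes moved to −0.30, and the 7127 genes then called split into 929 higher and 6198 lower. Of the genes said below to rise or fall, none changed sign under the other 3 scalings (RLE, upper-quartile and library size). By library size alone Dag1, Sgcb, Sgcd, Met, Sdha, Cpt1b, Col24a1, Spon1, Gata2, Flnc, Dysf and Ldb3 did not pass. Genes given as the exceptions to the direction of their list were chosen after their values were seen.

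**Figure D2:**
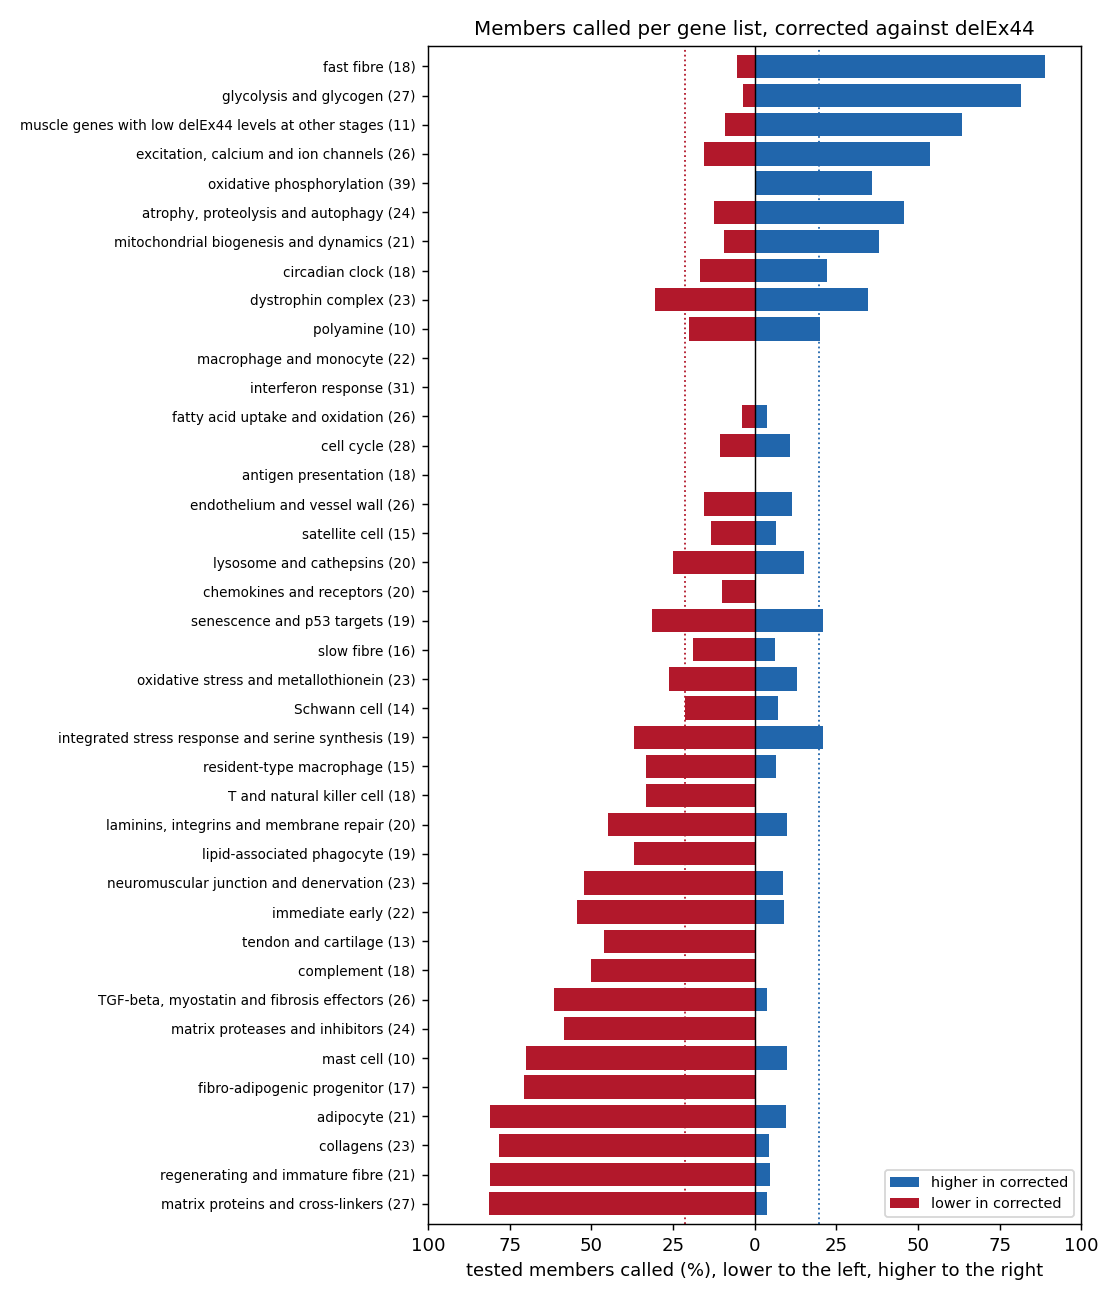
Share of tested members called higher (right) or lower (left) in corrected than in delEx44 muscle for each gene list with at least 10 tested members, whose number stands in brackets. Dotted lines mark the shares over all genes, 19.6% higher and 21.4% lower. Fast fibre and glycogen genes stand at the top and matrix genes at the bottom. By library size alone the balance turned to lower for the oxidative phosphorylation, mitochondrial, circadian, dystrophin complex, fatty acid (1 higher and 1 lower to 0 and 4), cell cycle (3 and 3 to 2 and 7) and polyamine lists.

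The largest rises held a gene of glycogen metabolism. Ppp1r3c, which targets protein phosphatase 1 to glycogen (chromosome 19, 36731731 to 36736653), went from 178, 240 and 262 CPM to 1729.7, 2494 and 900.1 CPM (log2 2.91 ± 0.39, adjusted p = 0.00107). Corrected library 2 was the highest and library 3 the lowest of its group, and all 3 lay above delEx44.

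Asb4, a substrate adaptor of ubiquitin ligases, went from 2.31, 2.01 and 1.86 CPM to 16.8, 29.5 and 15.2 CPM (log2 3.31 ± 0.28). Tmem132b, which encodes a membrane protein, went from 2.84, 5.72 and 4.46 CPM to 43.7, 39.0 and 31.9 CPM (log2 3.14). Doc2b, a calcium sensor of vesicle fusion, rose by a log2 of 3.02, Neto2, an auxiliary subunit of kainate receptors, by 2.65, the corepressor Hr by 2.40 and the cadherin Cdh4 by 2.40. Corrected library 2 added to the size of a further pair. Odf3l2, of the outer dense fibre family, was at 15.5, 65.0 and 10.6 CPM in corrected muscle against 1.23, 2.78 and 1.63 in delEx44, and its log2 difference of 4.01 was 2.80 without that library. Dkk3, a secreted member of the Dickkopf family, was at 20.9, 98.3 and 32.1 CPM against 9.52, 7.61 and 8.75, and its log2 difference of 2.54 was 1.62 without library 2. With the replicate block Dkk3 did not pass.

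The largest falls held hyaluronan, calcium pump, keratin and fat cell genes. Has1, a synthase of the matrix sugar hyaluronan (chromosome 17, 17843323 to 17855205), was at 26.4, 4.54 and 15.3 CPM in delEx44 and at 0.232, 0.200 and 0.392 CPM in corrected muscle. Its log2 difference of −5.77 ± 0.77 (adjusted p = 0.000922) was −5.14 without delEx44 replicate 1, and limma-voom did not call it. Sln, sarcolipin, an inhibitor of the calcium pump of the sarcoplasmic reticulum (chromosome 9, 53850164 to 53854560), fell from 177, 170 and 153 CPM to 6.76, 3.44 and 6.31 CPM. Its log2 difference was −4.92 ± 0.21 (adjusted p = 5.13e-06), and WT libraries had 3.55, 3.55 and 3.93 CPM.

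Krt18, the partner of Krt8 in simple keratin filaments, fell from 58.4, 37.9 and 41.8 CPM to 3.21, 1.72 and 2.57 CPM (log2 −4.20 ± 0.24). Cfd, adipsin, a complement protease made by fat cells, fell from 514, 474 and 413 CPM to 37.3, 15.1 and 40.1 CPM (log2 −3.92 ± 0.48). Cyp2e1, a cytochrome P450 that is also high in fat, fell from 551, 473 and 419 CPM to 44.2, 29.3 and 41.3 CPM (log2 −3.65 ± 0.23). The carboxylesterase Ces1f (−3.91), the acyl-CoA synthetase Acsm3 (−3.53) and Hcar1, the lactate receptor of fat cells (−3.49), completed the 10, with Krt8 and Egr3.

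Most genes of regenerating and immature fibres fell. Of 21 tested, 17 fell and 1 rose, with a median log2 of −1.43. Myh8, the perinatal myosin heavy chain of young fibres, fell from 69.9, 57.7 and 58.4 CPM to 20.2, 15.0 and 19 CPM (log2 −1.78 ± 0.11, adjusted p = 1.09e-05), where WT had 9.48, 9.63 and 10.4. Tnnt2, the cardiac and embryonic troponin T, fell from 30.4, 25.5 and 26.2 CPM to 6.99, 5.64 and 7.53 CPM (log2 −2.02). H19, an imprinted RNA high in fetal muscle, fell from 1339.5, 1318 and 1298 CPM to 385, 418 and 550 CPM (log2 −1.55). None of these groups overlapped. The fusion proteins myomaker and myomixer, listed under their older symbols Tmem8c (−1.99) and Gm7325 (−2.29), and the myogenic factor Myog (−1.41) fell with them. The exception was Mybph, a myosin-binding protein, at a log2 of 0.78.

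Satellite cells, the stem cells that supply those fibres, showed few changes. Of 15 tested markers Met, the receptor of hepatocyte growth factor, rose (log2 0.29), and Megf10 (−0.62) and Cxcr4 (−0.45) fell. The calls of Megf10 and Cxcr4 were lost without corrected replicate 1, without delEx44 replicate 1 and without delEx44 replicate 3. Without corrected replicate 2 Cxcr4 was lost too, and without corrected replicate 3 Megf10 was. The list stood at 3.67 to 3.82 in the corrected libraries and at 3.69 to 3.80 in delEx44 (mean log2 CPM of the members), which overlap.

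The acetylcholine receptor and its partners moved with the immature fibre genes. In adult fibres these genes are read mainly beneath the nerve ending, and they spread along the fibre when it is young or denervated. The position of a transcript within a fibre cannot be read from whole muscle. Chrna1, the alpha subunit of the receptor, fell from 127, 97.0 and 100 CPM to 28.8, 20.4 and 29.0 CPM (log2 −2.05 ± 0.14, adjusted p = 2.09e-05). Chrnd, the delta subunit, fell from 26.8, 22.3 and 22.3 CPM to 5.41, 5.00 and 4.50 CPM (log2 −2.26 ± 0.11). Chrng, the fetal gamma subunit, fell from 6.83, 5.43 and 5.62 CPM to 1.78, 0.760 and 1.21 CPM (log2 −2.25). Corrected and delEx44 libraries did not overlap in any of these 3 subunits.

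The stretches before the starts of Chrna1 and Chrng are shown because E-boxes of the form CAGCTG, the kind of site that myogenic factors bind, lie in both (capitals; the motif reads the same on the 2 strands). They are the 250 bases before the start in RefSeq, on GRCm38.p6, at chr2:73580339-73580588 (minus strand) and chr1:87205561-87205810 (plus strand).
Chrna1: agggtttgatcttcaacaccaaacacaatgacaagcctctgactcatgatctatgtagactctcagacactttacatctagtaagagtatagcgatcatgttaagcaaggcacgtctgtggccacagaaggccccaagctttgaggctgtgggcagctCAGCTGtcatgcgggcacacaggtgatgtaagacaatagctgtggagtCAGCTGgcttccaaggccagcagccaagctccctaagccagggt
Chrng: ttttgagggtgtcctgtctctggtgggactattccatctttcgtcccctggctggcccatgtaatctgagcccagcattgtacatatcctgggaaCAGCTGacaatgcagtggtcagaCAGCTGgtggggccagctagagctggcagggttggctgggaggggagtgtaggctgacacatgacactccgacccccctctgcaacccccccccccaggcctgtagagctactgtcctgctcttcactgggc
Each holds the motif 2 times. With 50 bases after the start included, 7 of the 15 genes of the junction list that have a window hold it in at least 1 window. Of all 32851 single windows 16.3% hold it. The first share is per gene and the second per window, so they cannot be compared directly. Among the genes of the list that rose, Musk holds it and Dok7 does not. This describes the letters and was not tested for binding.

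Further junction and denervation genes fell. Ncam1, the neural cell adhesion molecule, went from 52.5, 46.9 and 44.7 CPM to 19.2, 12.2 and 18.4 CPM (log2 −1.53). Of the 23 tested genes 12 fell and 2 rose, with a median log2 of −0.48. The falls were 8 without any 1 of the delEx44 libraries and 18 by library size alone. They were 9 with the 6 libraries alone, with the replicate block, with no filter on low counts or without corrected replicate 3. Chrng and Ncam1 are also members of the immature fibre list, so the falls of these lists are not independent. The 2 that rose organise the adult junction, the receptor kinase Musk (0.77) and its activator Dok7 (0.70).

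Fast fibre genes were higher in corrected muscle in 16 of 18 tested, with a median log2 of 0.80. Myh4, the myosin heavy chain of the fastest fibres (chromosome 11, 67238029 to 67260446), rose from 12083, 17561 and 16755 CPM to 53011, 51924 and 47969 CPM (log2 1.72 ± 0.14, adjusted p = 2.76e-05). WT libraries held 54150.0, 48517 and 56689 CPM, a range that 2 of the 3 corrected libraries fall into. Mybpc2, the fast myosin-binding protein C, rose by a log2 of 1.30, Mylk2, the kinase of the fast light chain, by 1.25, and Actn3, the alpha-actinin of fast fibres, by 1.09. The 1 gene that fell was Myh1, the myosin heavy chain of IIx fibres, which are fast but slower than those of Myh4, at a log2 of −0.46.

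Genes that couple the nerve signal to calcium release rose with the fast fibre genes. Jph1, junctophilin, which joins the surface and internal membranes, rose from 262, 317 and 305 CPM to 596, 662 and 564 CPM (log2 1.05 ± 0.093). The muscle sodium channel Scn4a (0.96), the chloride channel Clcn1 (0.91) and Stac3, an adaptor of the calcium channel (0.82), rose too. Of 26 tested genes 14 rose and 4 fell, with a median log2 of 0.40. Those that fell included Kcnn3, a potassium channel of denervated muscle (−2.72), Trpc1 (−0.75) and Kcnj2 (−0.41).

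Glycolysis and glycogen genes showed the same direction, with 22 of 27 tested higher, 1 lower and a median log2 of 0.64. Phka1, a regulatory subunit of phosphorylase kinase, rose from 402, 563 and 528 CPM to 1815, 1539 and 1253 CPM (log2 1.63 ± 0.15, adjusted p = 5.75e-05). Pygm, the muscle glycogen phosphorylase it activates, rose from 2358, 3075 and 2873 CPM to 6746, 6858 and 5959 CPM (log2 1.24). Phkg1, the catalytic subunit of the kinase, rose as well (1.17). In each of these 3 genes every corrected library lay above every delEx44 library. Hk1, the hexokinase of most other tissues, fell (−0.66).

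Growth and protein turnover genes of the fibre also rose. Mstn, myostatin, which limits muscle growth (chromosome 1, 53061640 to 53068079), went from 23.0, 30.0 and 31.7 CPM to 135, 153 and 96.7 CPM (log2 2.18 ± 0.18, adjusted p = 6.43e-05), near WT at 124, 148 and 145 CPM. Of 24 genes of atrophy, proteolysis and autophagy 11 rose and 3 fell, or 7 and 5 by library size alone, and 7 rose without delEx44 replicate 1. Asb2, a ubiquitin ligase adaptor, rose from 106, 128 and 128 CPM to 408, 438 and 312 CPM (log2 1.68 ± 0.13). Fbxo40 (0.96), the calpain Capn3 (0.79) and the transcription factor Foxo4 (0.55) rose with it. The lower 3 were Fbxo30, Ctsl and Map1lc3a, at −0.37 to −0.43. Among 11 muscle genes listed because they were low in delEx44 muscle at the other stages of the series, 7 rose, such as Slc15a5 (3.59), Slc30a2 (2.07) and Mettl21c (1.39), and Nnat fell (−1.80). That list was chosen on related libraries and is not independent evidence of direction.

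Mitochondrial genes moved less and depended on the scaling. Of 39 oxidative phosphorylation genes 14 rose and 0 fell with a median log2 of 0.18, whereas by library size alone 0 were higher and 8 lower. Sdha, a subunit of complex II, was at 744, 839 and 801 CPM in delEx44 and at 954, 1129.6 and 1086 CPM in corrected muscle (log2 0.41 ± 0.081, adjusted p = 0.00279). Cycs, cytochrome c (0.41), and Cox5a of complex IV (0.40) rose under the main scaling but did not pass by library size alone. The count of 14 was 23 without corrected replicate 1, 7 without corrected replicate 2, 6 without delEx44 replicate 1 and 7 without delEx44 replicate 3. Corrected library 1 was the lowest of its group in 37 of the 39 genes and library 2 the highest in 37.

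Of 26 genes of fatty acid uptake and oxidation, Cpt1b, the carnitine transferase of muscle mitochondria, rose (0.44) and the transporter Slc27a1 fell (−0.59). Cpt1b lost its call by library size alone and without corrected replicate 2, delEx44 replicate 1 or delEx44 replicate 3. Slc27a1 lost it with the 6 libraries alone, with the replicate block, without corrected replicate 3 and without any 1 of the delEx44 libraries. Without corrected replicate 1, 14 of the 26 were higher, and without corrected replicate 3, 4 were. Without corrected replicate 2, 0 were higher and 3 lower, and by library size alone 0 were higher and 4 lower. Among 21 genes of mitochondrial biogenesis and dynamics 8 rose and 2 fell (3 and 7 by library size alone, and 5 rises without delEx44 replicate 1). Ucp3, the uncoupling protein of muscle, rose from 137, 181 and 158 CPM to 482, 670 and 247 CPM (log2 1.56 ± 0.33), and the fusion genes Opa1 (0.49) and Mfn1 (0.47) rose by less. Ppargc1b (−0.56) and Ucp2 (−0.47) were the 2 that fell.

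Matrix genes fell broadly. Of 23 collagens 18 fell and 1 rose, with a median log2 of −0.73. Col14a1, which binds fibrils of collagen I, fell from 124, 85.4 and 122 CPM to 33.4, 25.4 and 32.2 CPM (log2 −1.87 ± 0.15, adjusted p = 3.98e-05), against 31.3, 28.9 and 29.5 in WT. Col8a1 fell by 1.53, Col23a1 by 1.13 and Col15a1 by 0.57 on the log2 scale, and Col24a1 was the 1 that rose (0.74). Of 27 matrix proteins and cross-linkers 22 fell, with a median of −0.73. Thbs1, thrombospondin 1, an activator of latent TGF-beta, fell from 277, 311 and 220 CPM to 56.5, 67.1 and 39.9 CPM (log2 −2.31 ± 0.20). The proteoglycan Bgn (−1.15), the microfibril protein Mfap5 (−1.15) and Fbln1 (−0.97) fell as well, and Spon1 rose (0.55).

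TGF-beta drives scar formation, and genes listed for TGF-beta, myostatin and fibrosis fell in 16 of 26 tested, with a median log2 of −0.55. Ctgf, connective tissue growth factor, a target of TGF-beta, fell from 280, 248 and 231 CPM to 54.2, 73.4 and 64.3 CPM (log2 −1.98 ± 0.14, adjusted p = 1.54e-05). Ltbp2, named for the latent TGF-beta binding protein family, fell from 6.98, 6.14 and 5.92 CPM to 1.39, 1.36 and 1.53 CPM (log2 −2.15). Wisp1 fell by 2.14 on the log2 scale, and the 1 member that rose was Mstn, described above. The level of this list was 4.41 in each corrected library (mean log2 CPM of the members) against 4.99 to 5.08 in delEx44 and 4.37 to 4.42 in WT.

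Proteases that remodel the matrix and their inhibitors fell in 14 of 24 tested in edgeR, with none higher. With DESeq2, and without corrected replicate 2, corrected replicate 3 or delEx44 replicate 2, 1 was higher. The examples with the smallest p were Serpinh1, a chaperone of collagen (−1.04), Timp2 (−0.78), Serpinf1 (−0.75) and the urokinase receptor Plaur (−2.01). Fibro-adipogenic progenitors, the connective tissue cells that make much of this matrix, had 12 of 17 markers lower and none higher in edgeR. With DESeq2 or RLE scaling, and without corrected replicate 2 or delEx44 replicate 3, 1 was higher. Has2, a hyaluronan synthase, fell from 12.0, 7.51 and 8.61 CPM to 2.20, 2.76 and 2.43 CPM (log2 −1.93), and Ugdh, which makes its sugar precursor, fell from 106, 148 and 95.2 CPM to 32.7, 20.7 and 28.5 CPM (log2 −2.09). Gdf10 fell by 1.30 on the log2 scale. Of 13 tendon and cartilage genes, which a dissection can carry along, 6 fell, such as Comp (−1.40), Scx (−1.29), Prg4 (−0.87) and Thbs4 (−0.75). Their list level was 2.78 to 3.60 in corrected and 3.58 to 3.77 in delEx44 libraries (mean log2 CPM). The part of tendon tissue in the matrix result was not tested.

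Fat cell genes were lower in corrected than in delEx44 muscle. Of 21 tested, 17 fell and 2 rose, with a median log2 of −1.43. Retn, the fat hormone resistin, fell from 45.5, 33.4 and 37.1 CPM to 7.07, 6.44 and 5.07 CPM (log2 −2.65 ± 0.15, adjusted p = 6.06e-06), where WT had 9.66, 9.70 and 11.3. Pparg, the master regulator of fat cells (chromosome 6, 115360951 to 115490399), fell from 41.1, 30.9 and 30.8 CPM to 8.77, 9.80 and 8.88 CPM (log2 −1.91 ± 0.12), where WT had 12.5, 12.6 and 13.8. Lipe, the hormone-sensitive lipase, and Thrsp, a regulator of lipid synthesis, fell by 1.29 and 1.30 on the log2 scale. The 2 that rose, Lpin1 (1.28) and Plin4 (0.98), are also expressed in muscle fibres. The list level was 5.47, 5.83 and 5.41 in the corrected libraries, 6.86 to 7.29 in delEx44 and 5.98 to 6.06 in WT (mean log2 CPM).

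Complement genes fell in 9 of 18 tested, with a median log2 of −0.68, and none was higher except 1 without corrected replicate 2. The falls were 13 without corrected replicate 3 and 7 without delEx44 replicate 1. Corrected library 3 lay above every delEx44 library in 7 of the 18 genes and below every one in 9. Beside Cfd the genes that fell included the protease C2 (−1.0) and the C1 inhibitor Serping1 (−0.78). Mast cell genes fell in 7 of 10, among them the chymase Mcpt4 (−1.19), the tryptase Tpsb2 (−1.06), Cma1 (−0.89) and the receptor Kit (−0.85), while Gata2 rose (0.50). Of 18 T and natural killer cell genes 6 fell, such as the kinase Zap70 from 1.86, 1.76 and 1.13 CPM to 0.193, 0.360 and 0.321 CPM (−2.43). This number was 2 without delEx44 replicate 2. Of 6 B and plasma cell genes Ms4a1 (−2.32) and Xbp1 (−0.52) fell. Ms4a1 was near the floor, with a mean of 0.334 CPM over the 18 sedentary libraries of both ages. With a filter at a mean of 1 CPM the falls were 2 in the T and natural killer cell list and 1 in the B and plasma cell list.

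Lipid-associated phagocyte genes fell in 7 of 19, and in 11 without corrected replicate 2 or without corrected replicate 3. The falls were 5 without delEx44 replicate 1 and 6 without delEx44 replicate 3, and DESeq2 called 12 lower and 1 higher. Corrected library 3 lay above every delEx44 library in 2 of the 19 genes and below every one in 14. Ctsk, cathepsin K, which digests collagen, fell from 63.8, 46.0 and 57.5 CPM to 19.2, 8.96 and 13.3 CPM (log2 −2.01 ± 0.24). The tetraspanin Cd9 (−0.74), the lipid droplet protein Plin2 (−0.58) and the cholesterol exporter Abca1 (−0.57) fell by less. Among 15 genes of resident-type macrophages 5 fell, such as Vsig4 (−1.52), Gas6 (−0.51) and Lyve1 (−0.46), and Cd163, a haemoglobin scavenger receptor, rose from 39.2, 41.7 and 41.4 CPM to 102, 67.3 and 53.2 CPM (0.86). The 5 falls were 2 without corrected replicate 1, 2 without any 1 of the delEx44 libraries, and 8 without corrected replicate 3. Vsig4 was at −2.30 on the log2 scale without corrected replicate 3 and did not pass without corrected replicate 1 or delEx44 replicate 1. Cd163 did not pass with the replicate block, and Lyve1 lost its call under 6 of 15 alternatives.

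General macrophage markers, interferon-stimulated genes and antigen presentation genes had 0 calls among 22, 31 and 18 tested in edgeR. At an unadjusted p under 0.05 there were 2, 0 and 2, DESeq2 called 2, 1 and 2, and limma-voom 1, 0 and 1. Their medians were −0.41, 0.34 and −0.44 on the log2 scale. Csf1r, the receptor of the macrophage growth factor, was at 130, 113 and 117 CPM in delEx44 and at 66.2, 40.5 and 100.2 CPM in corrected libraries (−0.80, adjusted p = 0.0721). Without corrected replicate 3, edgeR called 12 of the 22 macrophage genes, 10 of the 31 interferon genes and 7 of the 18 antigen presentation genes, all lower. The values behind this are given with the spread below.

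Immediate early genes, which are switched on within minutes by injury, stretch or handling of tissue, fell in 12 of 22 tested, with a median log2 of −1.18. Egr3, a transcription factor also needed for muscle spindles (chromosome 14, 70077203 to 70082614), fell from 58.9, 37.6 and 35.5 CPM to 0.811, 0.480 and 1.89 CPM (log2 −5.34 ± 0.54, −6.04 without corrected replicate 3). Myc fell from 52.3, 31.0 and 40.2 CPM to 13.1, 9.92 and 10.1 CPM (−1.90), Fosl2 by 1.99 and Maff by 1.51 on the log2 scale. Jun (0.56) and the phosphatase Dusp1 (0.78) were higher and lost their calls by library size alone. How long each muscle lay before freezing is not labelled, and its part in these values was not tested.

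Senescence and p53 genes had 6 falls and 4 rises in 19 tested. Cdkn2b, an inhibitor of the cell cycle, fell by 1.21 on the log2 scale. Cdkn2a, its neighbour and the usual mark of senescent cells, was at 9.22, 9.97 and 8.75 CPM in delEx44 and at 2.74, 0.16 and 2.64 CPM in corrected muscle (−2.32). Ccng1 (0.70) and Sesn1 (0.81), both targets of p53, rose. Without delEx44 replicate 1 or replicate 2 the falls were 3.

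Of 28 cell cycle genes 3 rose, 3 fell and 22 did not pass, and without corrected replicate 3 the falls were 10. The log2 difference was negative in 18 and positive in 10, with a median of −0.18. Aurka, a mitotic kinase, rose from 1.89, 2.14 and 2.06 CPM to 8.69, 6.76 and 7.17 CPM (log2 1.89 ± 0.14, adjusted p = 1.73e-05), near WT at 10.1, 11.3 and 9.23. Its activator Tpx2 rose by 1.17. Rrm2, a subunit of ribonucleotide reductase, fell from 9.73, 8.76 and 8.88 CPM to 3.28, 2.44 and 5.35 CPM (−1.30).

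Smaller groups held both directions. In the stress response list 7 of 19 fell and 4 rose, with falls of the serine synthesis enzymes Phgdh (−1.95) and Psat1 (−0.91) and of Ddit3 (−0.84) and a rise of Vldlr (0.93). Among 10 polyamine genes Smox, spermine oxidase, rose from 24.9, 47.2 and 40.5 CPM to 221, 182 and 104 CPM (2.17 ± 0.35) and Sms rose by 0.92, while Sat1 fell (−0.48). Srm, spermidine synthase, was at −0.41 (adjusted p = 0.0412), and its call was lost under 9 of 15 alternatives, RLE scaling and DESeq2 among them. Of 20 laminin, integrin and membrane repair genes 9 fell and 2 rose, with falls of the annexins Anxa1 (−0.94), Anxa2 (−0.68) and Anxa5 (−0.66) and rises of Flnc (0.55) and dysferlin, Dysf (0.40). Of 26 vessel genes 4 fell, such as Apln (−1.51), and 3 rose, such as Flt1, a receptor of VEGF, from 92.7, 96.0 and 93.1 CPM to 169, 185 and 162 CPM (0.87 ± 0.063). By library size alone 11 vessel genes were lower and 1 higher.

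Of 14 Schwann cell genes Gldn, gliomedin (−2.46), Egr2 (−3.38) and Pmp22 (−0.64) fell. In the circadian list 4 of 18 rose and 3 fell, or 1 and 8 by library size alone, and 0 of the falls were called without corrected replicate 1 or without any 1 delEx44 library. The falls were 1 without corrected replicate 2 or with RLE scaling. The rises were 2 without corrected replicate 1, corrected replicate 2, delEx44 replicate 1 or delEx44 replicate 3. Arntl, the core clock factor, was at 9.37, 10.4 and 9.28 CPM in delEx44 and at 17.0, 25.8 and 13.2 CPM in corrected muscle (0.94 ± 0.20). The hour of dissection is not labelled. Oxidative stress genes had 6 falls and 3 rises in 23, with Sod3 lower (−0.94) and Sod2, the mitochondrial enzyme, higher (0.61).

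Lysosome genes had 5 falls and 3 rises in 20, and the falls were 11 without corrected replicate 3, 3 without corrected replicate 1 and 2 without delEx44 replicate 1 or 3. Npc1, the lysosomal cholesterol transporter, rose (1.28) and Lamp2 fell (−0.41). Chemokines and their receptors had 2 falls in 20, Ccl5 (−1.64) and Cxcl14 (−0.57), and 7 without corrected replicate 3. In the neutrophil list Lcn2, lipocalin 2, rose from 1.80, 2.24 and 2.83 CPM to 6.64, 6.48 and 4.60 CPM (1.37 ± 0.21) and 7 of 8 did not pass in edgeR. Of these 7, Mmp9 (−0.83, adjusted p = 0.0576) was called lower by DESeq2, by limma-voom, by library size alone and without corrected replicate 3, and was chosen after its values were seen. Without corrected replicate 2, 4 neutrophil genes were higher. Red cell, keratinocyte and sex-linked lists, kept as checks of the dissection and of the animals, had 0 calls among 5, 5 and 4 genes in edgeR. At an unadjusted p under 0.05 they had 1, 0 and 1. DESeq2 called 1, 0 and 0, and limma-voom 0 of each.

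The 3 corrected libraries differed from each other more than the libraries of either other group did. Over 10235 genes with a mean of at least 5 CPM the median SD of log2 CPM was 0.117 in corrected, 0.079 in delEx44 and 0.0985 in WT libraries. The SD passed 0.5 in 639 genes (6.24%) in the corrected group, against 32 in delEx44 and 48 in WT. The corrected group had the largest of the 3 SDs in 50.5% of genes. In pairs of libraries, 336 genes lay at least 1 log2 unit apart between corrected 1 and 2, 177 between 1 and 3 and 440 between 2 and 3. The delEx44 pairs had 1 to 20 such genes and the WT pairs 12 to 30. The order of the 3 groups was the same under RLE and library size scaling and with a level minimum of 1 or 20 CPM. No test was made of this spread.

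Corrected library 2 was nearest to WT. It had 61 to 99 genes at least 1 log2 unit from a WT library, against 387 to 490 for library 1 and 398 to 484 for library 3. On the first principal component, which held 61.3% of the variance, WT lay at −35.6 to −47.7, delEx44 at 49.4 to 58.8 and corrected libraries 1, 2 and 3 at −2.06, −39.7 and 7.29. The second component held 16.1% and set corrected libraries 1 and 3, at −39.8 and −37.1, apart from all others, which lay at −2.12 to 16.5. Among the 5880 called genes corrected library 2 was the farthest from the delEx44 mean in 54.6%, and library 3 was the nearest in 3131. Library 2 was also the highest in Dmd, as given above. With 3 libraries no relation between Dmd and other genes was computed.

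Of the 639 genes with a wide spread, 42 were called higher and 122 lower in corrected muscle. Library 2 lay apart below the other two in 262 of them and library 3 apart above in 152. Library 1 lay apart below in 68. Only genes with a mean of at least 5 CPM could count as wide, while the list totals that follow hold all tested members. The list shares therefore cannot be compared directly with each other or with the share over all genes. A wide spread was seen in 19 of 22 macrophage genes, 15 of 18 antigen presentation genes, 23 of 31 interferon genes, 11 of 16 slow fibre genes, 10 of 15 genes of resident-type macrophages, 12 of 19 lipid-associated phagocyte genes and 11 of 18 complement genes, against 1 of 18 fast fibre genes, 0 of 39 oxidative phosphorylation genes and 0 of 26 TGF-beta genes.

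**Figure D3:**
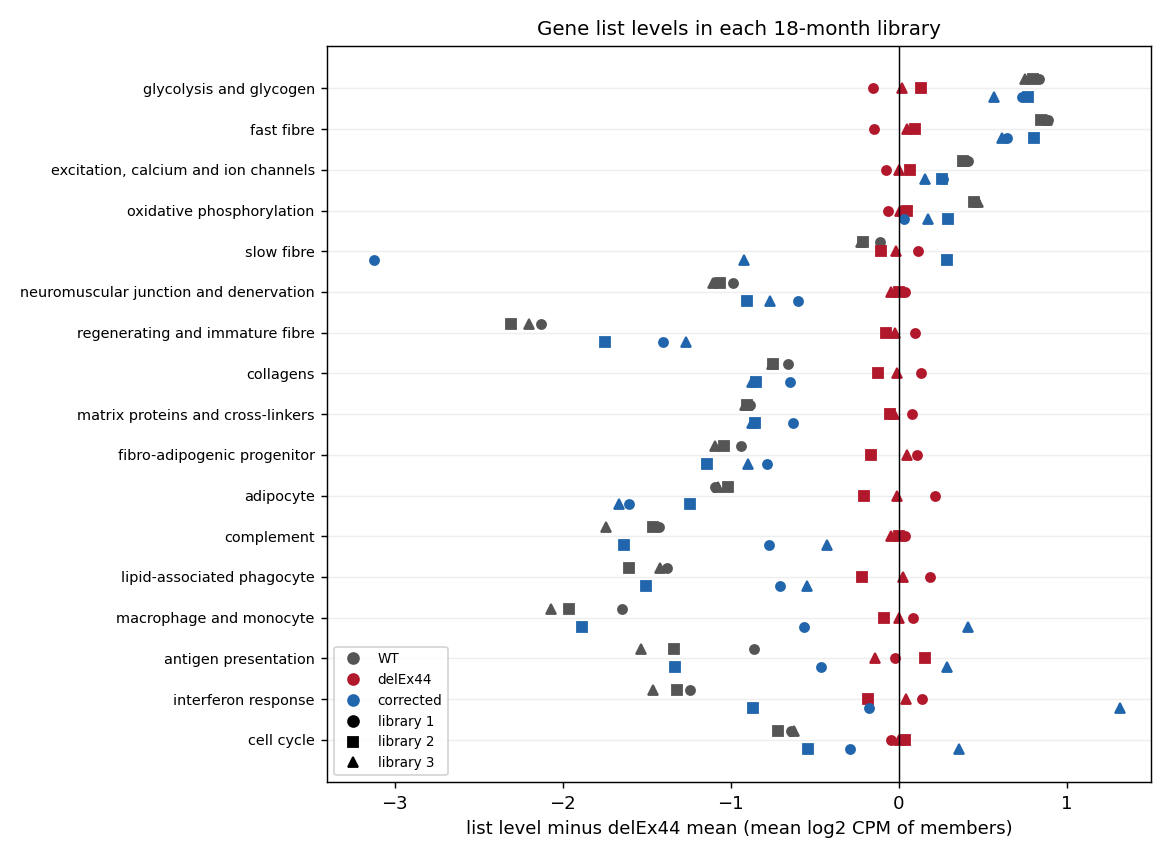
Level of 17 gene lists in each library, as mean log2 CPM of the members minus the delEx44 mean, with colour for group and symbol for library. Corrected libraries lie close together for collagens, matrix and fast fibres. Corrected library 1 lies far below the others for slow fibre genes, and corrected library 3 lies above delEx44 for interferon and macrophage genes.

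Slow fibre genes formed the widest gap between corrected libraries. Myh7, the myosin heavy chain of slow fibres (chromosome 14, 54970684 to 54994626), was at 0.811, 406 and 60.1 CPM in corrected libraries 1, 2 and 3, against 212, 180 and 176 CPM in delEx44 and 214, 203 and 168 CPM in WT. Myl3, the slow essential light chain, was at 0.0772, 254 and 57.2 CPM, and in library 1 this was 2 counts. Myl2, the slow regulatory light chain, was at 1.89, 235 and 67.3 CPM, the slow troponin T Tnnt1 at 3.82, 157 and 35.3 CPM and the slow troponin C Tnnc1 at 2.55, 86.2 and 15.2 CPM. In these 5 genes library 1 was the lowest of all 9 libraries and library 2 the highest. The delEx44 and WT libraries of this age varied far less within their groups. The WT libraries of 4 weeks, from the age comparison below, also spread widely, with Myh7 at 120, 66.1 and 11.2 CPM. In them Myl3 was at 76.1, 66.2 and 5.48 CPM and Tnnt1 at 51.8, 34.7 and 8.21 CPM. At 4 weeks Myh7 was at 32.0, 33.6 and 28.2 CPM in delEx44 and at 57.2, 45.3 and 137 CPM in corrected libraries.

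Over the list, corrected library 1 was the lowest of its group in 14 of 16 genes and below every WT library in 14, and library 2 was the highest of its group in 14. The list level was 3.80, 7.22 and 6.01 in corrected libraries 1 to 3, against 6.82 to 7.05 in delEx44 and 6.70 to 6.82 in WT (mean log2 CPM). Myh2, the oxidative fast myosin, and Atp2a2, the slow calcium pump, chosen after their values were seen, followed the same order at 426, 2902 and 1436 CPM and at 129, 590 and 233 CPM. As a group comparison 3 of the 16 fell, Pln (−1.29), Actn2 (−0.69) and Myl6b (−0.48), and Ldb3 rose (0.43). Without corrected replicate 2, 8 were lower. Pln did not pass with the replicate block, and Myl6b did not pass without delEx44 replicate 1. Slow fibres lie in the deep part of the quadriceps, and which part of the muscle each library came from is not labelled, so the part of sampling in these values was not tested. Oxidative phosphorylation and fatty acid genes, described above, also had their lowest corrected level in library 1.

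**Figure D4:**
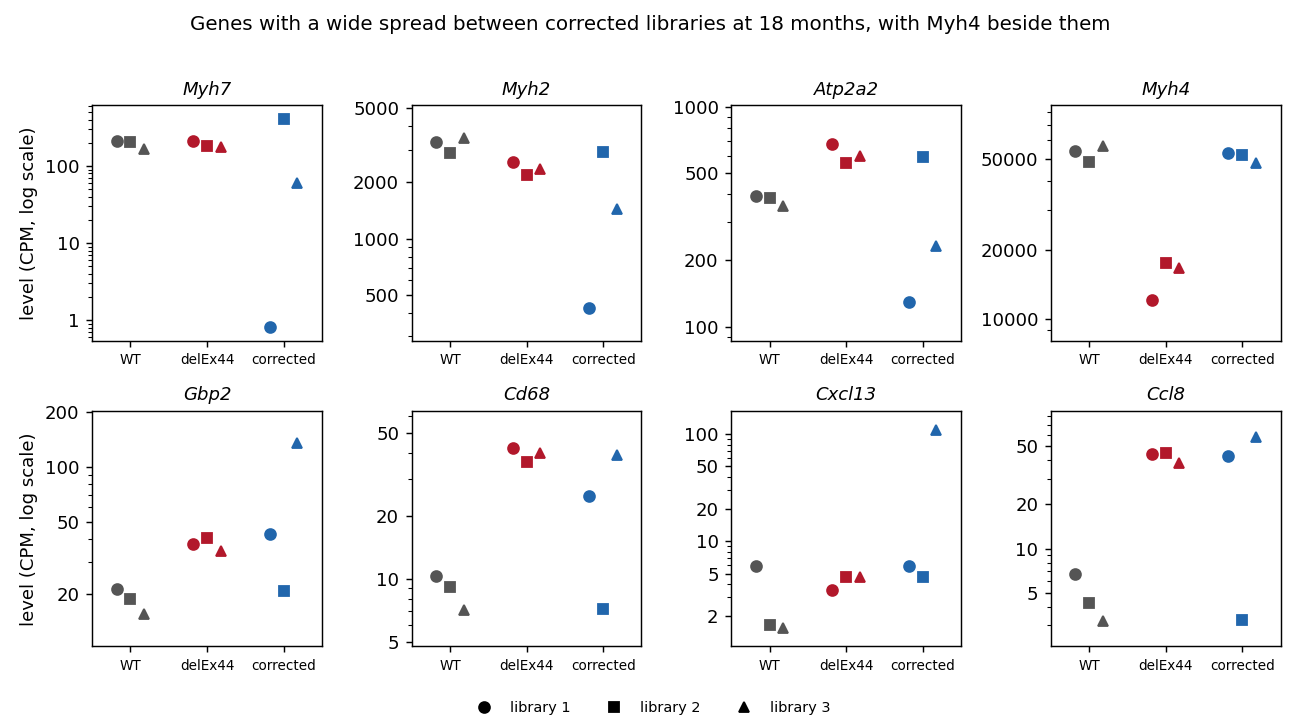
Levels (CPM, log axes) of 7 genes with a wide spread between corrected libraries and of Myh4, in the 9 libraries. Corrected library 1 (circle) is lowest for Myh7, Myh2 and Atp2a2, corrected library 3 (triangle) is highest for Gbp2, Cxcl13 and Ccl8, and the 3 corrected libraries lie together for Myh4.

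Interferon and macrophage genes formed the other gap. All 31 interferon genes had their highest corrected level in library 3, which lay above every delEx44 library in 31 of 31. Library 2 was below every delEx44 library in 28. Gbp2, an interferon-induced GTPase, was at 42.9, 20.8 and 135 CPM against 37.5, 40.4 and 34.6 CPM in delEx44. The list level was 3.38, 2.69 and 4.87 in corrected libraries, 3.37 to 3.69 in delEx44 and 2.09 to 2.31 in WT (mean log2 CPM). The named pair with the smallest p, Rsad2 (0.73, adjusted p = 0.134) and Ifi44 (0.88, adjusted p = 0.218), did not pass in edgeR with all libraries, and Rsad2 was called by DESeq2 and without corrected replicate 1.

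For macrophage and monocyte genes library 3 was the highest and library 2 the lowest in 22 of 22. Library 2 lay below every delEx44 library in 22, library 1 in 20 and library 3 in 5, and library 3 lay above every delEx44 library in 15. Cd68, the lysosomal marker of macrophages, was at 24.8, 7.16 and 39.3 CPM in corrected libraries against 42.3, 36.3 and 40.2 CPM in delEx44 and 10.3, 9.10 and 7.10 CPM in WT. The list level was 4.17, 2.85 and 5.15, against 4.65 to 4.82 in delEx44 and 2.66 to 3.09 in WT. Antigen presentation genes had the same order at 4.80, 3.93 and 5.55, against 5.12 to 5.42 and 3.73 to 4.40. Cell cycle genes were also highest in library 3, in 25 of 28, and in 19 library 3 lay above every delEx44 library. Their list level was 1.23, 0.979 and 1.88 in corrected libraries 1 to 3, against 1.47 to 1.56 in delEx44 and 0.801 to 0.897 in WT.

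Single chemokine and granulocyte genes stood out further. Cxcl13, which draws B cells, was at 5.87, 4.68 and 109 CPM in corrected libraries against 3.50, 4.64 and 4.69 CPM in delEx44. The chemokine Ccl8 was at 43.1, 3.24 and 57.9 CPM, the alarmin S100a9 at 1.93, 0.480 and 13.1 CPM, and Cish, a target of cytokine signalling, at 25.1, 2.32 and 47.1 CPM. Chil3, a chitinase-like protein of alternatively activated macrophages, was instead highest in library 1, at 28.7, 0.200 and 3.92 CPM, against 1.14, 1.09 and 1.23 CPM in delEx44. None of these 5 passed in edgeR with all libraries. Chil3 was called higher by DESeq2 and, in edgeR, without corrected replicate 2 (adjusted p = 0.0158). They are among the 10 genes with the widest spread between corrected libraries at a corrected mean of at least 5 CPM, with the 5 slow fibre genes above. The WT libraries of 4 weeks also spread widely in S100a9 (0.162, 0.259 and 76.0 CPM) and Chil3 (0.0325, 0.0370 and 14.7 CPM). Cish was at 63.8, 2.995 and 2.51 CPM in them. There Cxcl13 (0.162, 0.185 and 0.245 CPM) and Ccl8 (2.50, 3.62 and 2.57 CPM) did not spread widely.

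The same genotype comparison was made at 4 weeks, where corrected mice had received 8e13 vg/kg of each vector, with a self-complementary in place of a single-stranded guide vector. Age, vector dose, vector type and the sequencing of the 2 tables therefore cannot be told apart. In a fit over 18 sedentary libraries, 2370 of 14937 genes (15.9%) had a corrected-minus-delEx44 difference that itself differed between the ages, 1157 more positive and 1213 more negative at 18 months. Dmd was at 1.49 at 18 months and at 2.03 ± 0.14 at 4 weeks in this fit (log2), and the difference of −0.53 ± 0.20 did not pass (adjusted p = 0.0769).

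For each direction, the 6 named genes of lowest p at a mean of at least 5 CPM are described first. Hpgd, which breaks down prostaglandins, was at −2.68 in corrected against delEx44 muscle at 18 months and at −0.22 ± 0.14 at 4 weeks (log2), a difference of −2.46 ± 0.20 (adjusted p = 1.85e-05). At 18 months it stood at 76.6, 67.4 and 59.6 CPM in delEx44 and at 9.11, 11.6 and 10.3 CPM in corrected libraries. Crhr2, a receptor of urocortins, Bche, butyrylcholinesterase, Slc25a23, a mitochondrial carrier, and Lrrn4cl were lower in corrected muscle at 18 months, and at 4 weeks they were at 1.17 ± 0.14, 0.88 ± 0.11, 0.67 ± 0.09 and 0.51 ± 0.13. Tmpo, a protein of the nuclear lamina, and Aurka were higher at 18 months (1.38 and 1.93) and stood at −0.06 and 0.08 at 4 weeks. Peg10, Sept9, Rai14 and the imprinted Grb10 were at −2.03 ± 0.15, −1.0 ± 0.09, −0.85 ± 0.08 and −0.85 ± 0.09 at 4 weeks and did not pass at 18 months. Abcd2, a peroxisomal transporter of fatty acids, was at 0.94 ± 0.07 at 4 weeks and at −0.06 at 18 months.

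Genes described above also differed between the ages. Pparg, Retn, Lipe and Thrsp were more negative at 18 months by 1.75, 3.35, 2.12 and 1.87 on the log2 scale (adjusted p = 4.7e-05 to 0.0049). Mstn (1.34) and Asb2 (1.12) were more positive. Myh8 (1.61) and Tnnt2 (1.24) were more positive too, at −1.74 and −1.99 at 18 months against −3.35 and −3.23 at 4 weeks. Among the largest rises, Asb4 (2.41), Doc2b (2.95) and Neto2 (1.76) were more positive at 18 months.

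**Figure D5:**
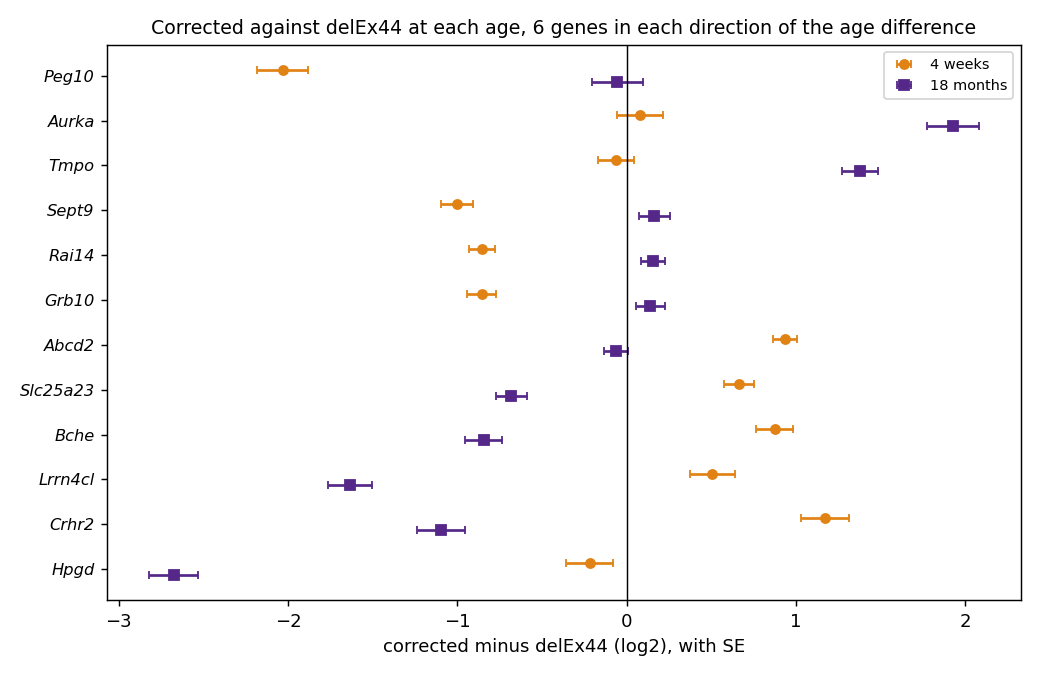
Corrected-minus-delEx44 difference (log2, with SE) at 4 weeks and at 18 months for the 12 genes named, 6 in each direction of the difference between the ages. Hpgd lies at −2.68 at 18 months and −0.22 at 4 weeks, and Peg10 lies at −2.03 at 4 weeks and near 0 at 18 months.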

How the data were processed

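RNA of whole quadriceps was sequenced, and the authors deposited raw read counts per gene symbol, 1 table for the 18-month libraries and 1 for the others. Per the submitters' processing notes, the build was mm10 and the tools were HTSeq, STAR 2.7.2b, edgeR, SAMtools 1.9, Trim Galore and Bowtie2 2.3.4.3. No annotation or strand setting is given in the sources used here. Reads of overlapping or antisense genes and of near-identical copies (such as Ces1f, Chil3, Mcpt4 and Tpsb2) may therefore be shared. The 5 summary records that name no gene held 42.2% to 48.3% of each 18-month column and were left out, and 6 columns of the other table were not used.

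All 9 libraries of 18 months were fitted together in edgeR 4.0.16 (R 4.3.3, limma 3.58.1, DESeq2 1.42.0) with filterByExpr, TMM scaling and the robust quasi-likelihood test, and p-values were adjusted over all genes by Benjamini-Hochberg at 0.05. Of 24062 symbols 14337 were tested. SE is the log2 difference divided by the root of its F. Spread used log2 CPM with a prior count of 2. The age comparison was an interaction over 18 sedentary libraries. WT columns 1 and 2 were matched to their group only, so their numbers are names.

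Named genes were Dmd and Utrn, the 10 largest rises and 10 largest falls with no overlap and a mean of at least 5 CPM in either group, up to 4 members of each list by p (2 where fewer than 3 passed), 6 genes in each direction of the interaction and the 10 with the widest corrected spread. Of 899 list genes 875 matched by symbol and 12 by an older one, and 849 were tested. The members and lists were chosen with earlier results of these data known. Some genes that the rule names are not reported here. Positions are from GENCODE vM21 (193 of 196 named symbols matched). Scripts were tested on simulated data. Alternatives were other scalings, filters and tools, the 6 libraries alone, a replicate block and leaving out each library.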

Additional observations from a re-analysis of the deposited data

Results flagged for a closer look

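The difference between corrected and delEx44 muscle was itself different at 18 months and at 4 weeks for 2370 genes in edgeR's interaction test. Age, vector dose, vector type and sequencing cannot be told apart in it. The count ran from 1598 without 1 delEx44 library of 4 weeks to 2984 without corrected replicate 2 of 18 months. Differences are given as 18 months minus 4 weeks on the log2 scale.

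More positive at 18 months were Peg10 (1.98), the mitotic kinase Aurka (1.85), the nuclear lamina gene Tmpo (1.44), Sept9 (1.17), Rai14 (1.01) and the imprinted Grb10 (0.99). Of these Aurka and Tmpo passed at 18 months. More negative were the prostaglandin dehydrogenase Hpgd (−2.46), Crhr2 (−2.27), Lrrn4cl (−2.14), Bche (−1.72), the mitochondrial carrier Slc25a23 (−1.35) and Abcd2 (−1.0).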

How the results depend on the processing

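The count of 5880 called genes ran from 5636 to 6049 over the other scalings, filters and tools except library size only, and was 5353 with the 6 libraries alone. By library size alone 929 genes were higher and 6198 lower, 13.0% higher against 47.9%, with the median of all genes at −0.30 (log2). Leaving out 1 library gave 4152 to 6256 calls. Replicate numbers did not pair the libraries, since same-numbered deviations correlated at −0.049 to 0.025, and with the replicate block 4397 genes were called, 2118 higher and 2279 lower. A tally was made of the log2 values recomputed for named genes other than Dmd, with the age differences of the 6 genes named in each direction. Of these values 3008 kept direction and side of the threshold, 76 lost and 42 gained a call and 23 changed sign. Counts of called genes and list counts are not in this tally. By library size alone the sign changed for Tef (−0.080), Fech (−0.13), Kdm5d (−0.083), Eif2s3y (−0.15), Rai14 (−0.15), Sept9 (−0.15), Grb10 (−0.17) and Myl3 (−0.17). Myl3 was also at −3.06 in limma-voom and −1.21 with the block, and S100a9 at −0.19 and −0.031. With each library left out in turn, 7 genes crossed 0: Myl3 ran from −1.72 to 0.71, Myh7 from −2.62 to 0.30, Tnnc1 from −2.34 to 0.15, Peg10 from −0.15 to 0.033, Ifi44 from −0.087 to 1.24, S100a9 from −1.19 to 1.42 and Ccl8 from −0.85 to 0.25. Of these 14 genes Tef alone was called. The cause was not tested. Depth limits genes under about 1 CPM, such as Has1, Zap70 and Ms4a1 in their lower group.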
